A study of Mus musculus with 10 samples.

Results

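Pou2f2, also known as Oct2, and the long non-coding RNA D930028M14Rik are annotated on opposite strands of the same stretch of mouse chromosome 7, and their reads are described here exon by exon in sorted cells of the embryonic spinal cord. They are 2 of the 48961 genes for which the deposited counts gave a value, and 2 of the 17825 that passed the filter on low counts. The pair was selected on measured values of these samples, namely the lower D930028M14Rik level in cdKO samples, so that every control against cdKO value of either gene is given as a description and without a test.

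RNA was sequenced from YFP-positive cells, sorted by FACS from mouse spinal cord at e10.5, in 5 control and 5 cdKO samples. All 10 samples carried Olig2-Cre, which recombines in the progenitor domain that produces motor neurons (MNs), and the Rosa26R-YFP reporter. At Oc1 and at Oc2, the floxed allele faced a wild-type one in control samples (Oc1+/Flox, Oc2+/Flox) and a null one in cdKO samples (Oc1-/Flox, Oc2-/Flox). The null alleles were thus present throughout the cdKO embryos, and the floxed ones were open to deletion where Cre was active. The study's text states that V3 interneurons (INs) also carry the reporter, and the labels do not say whether a sample was a single embryo or a pool. P-values therefore measure the spread between these samples only.

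Pou2f2 encodes a POU-domain transcription factor that binds the octamer motif. It is best known from B cells, where it works with the coactivator Pou2af1, and it is also present in neurons of the embryonic spinal cord. There, spinal neurons pass through successive waves of transcription factors with their time of birth, with the Onecut (OC) factors in an early wave, Pou2f2 and Zfhx proteins in later ones, and Nfi and Neurod factors last. D930028M14Rik has no annotated protein and no function that is described here.

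Pou2f2 (ENSMUSG00000008496) is annotated at chr7:25087344-25179726 (GRCm38, minus strand), with 10 annotated transcripts in GENCODE M21. D930028M14Rik (ENSMUSG00000074274) is a lincRNA on the plus strand at chr7:25152457-25156627, with 2 annotated transcripts. The deposited counts divide both genes into 39 exon bins, non-overlapping parts of exons, of which 34 belong to Pou2f2 and 5 to D930028M14Rik. No bin was shared by both genes. D930028M14Rik lies wholly within an intron of 38639 bases of the distal Pou2f2 transcript and ends 3234 bases from exon 2 of that transcript, so that the genes overlap as transcription units but not in their exons. The distal Pou2f2 start lies 27269 bases on one side of the D930028M14Rik start, and the proximal Pou2f2 start 19945 bases on the other.

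The annotated starts and the exon that tells transcripts apart are shown as sequence because the counts differ most between them. All are GENCODE M21 transcript sequence on GRCm38, written 5′ to 3′ on the gene's own strand. D930028M14Rik has an upstream first exon at chr7:25152457-25152626 and a downstream one at chr7:25155069-25155136, both on the plus strand:
D930028M14Rik upstream first exon: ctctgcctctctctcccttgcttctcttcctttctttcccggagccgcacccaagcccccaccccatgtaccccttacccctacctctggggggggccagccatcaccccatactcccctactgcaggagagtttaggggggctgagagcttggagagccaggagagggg
D930028M14Rik downstream first exon: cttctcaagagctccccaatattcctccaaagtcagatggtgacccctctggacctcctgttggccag

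Pou2f2 has a distal first exon of 13 bases at chr7:25179714-25179726, which belongs to 1 transcript annotated as a retained intron, and a proximal first exon at chr7:25132425-25132512, which starts 8 protein-coding transcripts. Capitals mark the distal first exon, the annotated start codon in the 28 coding bases of the proximal first exon, and the first in-frame ATG of the coding exon at chr7:25121156-25121221 that follows either start. The distal first exon is shown with 17 bases of exon 2, which lies at chr7:25159861-25159921. All 3 are on the minus strand:
Pou2f2 distal first exon: GATGGGAGCAGCGgttctcggctggaccgg
Pou2f2 proximal first exon, coding part: ATGgttcattccagcatgggggctccag
Pou2f2 first shared coding exon: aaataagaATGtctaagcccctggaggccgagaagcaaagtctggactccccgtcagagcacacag

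**Figure D1:**
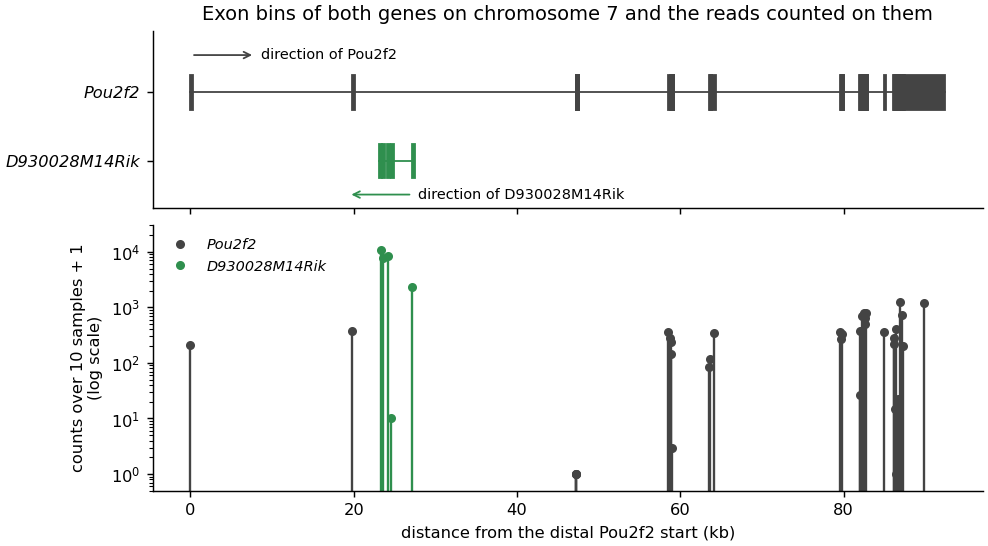
Exon bins of Pou2f2 and D930028M14Rik (top, bins narrower than 0.35 kb drawn at that width) and the counts on each bin summed over 10 samples plus 1, on a log scale (bottom), against the distance in kb from the distal Pou2f2 start. The D930028M14Rik bins stand within the intron that follows exon 2 of the distal Pou2f2 transcript. They lie between that exon and the proximal first exon, whose 3 bins have no read.

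Before the members are described, 3 properties of the libraries bear on them. The totals, which count overlaps of reads with bins, ranged from 63932395 to 107709534 in control samples and from 72315782 to 84249157 in cdKO samples, so that a floor of 3 counts corresponds to 0.0288 to 0.0591 CPM (counts scaled to a common library size). cdKO replicate 5 had counts on 198569 bins, whereas the other 9 samples had counts on 243970 to 271591. Of the markers, Isl1, Mnx1 and the other 6 motor neuron genes passed the filter, with a summed level of 563 to 711 CPM in control and 337 to 777 CPM in cdKO samples, and the lumbar Hox genes summed to 0.994 and 1.39 CPM in control replicates 1 and 5 against 15.2 to 104 CPM in the other 8. The Onecut genes were examined as a check of the labels. Onecut1 (Oc1) and Onecut2 (Oc2) were targeted, and the study's text states that Onecut3 expression is lost without them. Exon 1 of Onecut1 gave 1.63 ± 0.915 CPM in control (SD, n = 5) and 0.0476 ± 0.0879 CPM in cdKO samples (SD, n = 5), with 0 in 3 of the 5, and Onecut3 was at 0.490 ± 0.141 and 0.0125 ± 0.0156 CPM. Onecut2 overlapped between groups, at 4.81 ± 3.34 and 6.92 ± 7.15 CPM, over all of its bins.

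D930028M14Rik was an abundant lincRNA in control cells and was lower in every cdKO sample. Its level was 59.2, 102, 54.3, 45.4 and 32.8 CPM in control replicates 1 to 5, and 7.70, 3.52, 3.76, 4.03 and 11.8 CPM in cdKO replicates 1 to 5. The groups did not overlap, with the lowest control sample 2.78 times the highest cdKO sample. The means were 58.8 ± 26.3 CPM (SD, n = 5) and 6.17 ± 3.60 CPM (SD, n = 5), so that control was 9.53 times cdKO. In the edgeR fit over all genes its log2 fold change, cdKO over control, was -3.25 (SE 0.445), the 7th lowest of 17825. This is the difference on which the pair was selected. With cdKO replicate 5 left out the value was -3.63, and with control replicate 2, the highest control, left out it was -2.96.

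In the same fit edgeR's quasi-likelihood test called 0 of 17825 genes at a Benjamini-Hochberg adjusted p under 0.05 (0.0%), while 887 genes had an unadjusted p under 0.05 and DESeq2 called 19. Groups that did not overlap in CPM with cdKO lower were found for 40 of the 17825 genes (0.224%). D930028M14Rik was 1 of these by the way it was chosen, and no reading of its own count against that share is made.

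Per kilobase of its bins, D930028M14Rik stood at 54.9 ± 24.6 CPM per kb in control samples (SD, n = 5), above 92.5% of the 17825 genes and 8th among the 515 lincRNAs that passed the filter. In cdKO samples it stood at 5.76 ± 3.36 CPM per kb (SD, n = 5), above 63.8% of the genes and 54th among the lincRNAs. The transcript was thus still well above the floor of 3 counts in every cdKO sample, with 296 to 606 counts summed over its bins. In bulk RNA from sorted cells, fewer cells with the transcript and less of it per cell cannot be told apart.

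**Figure D2:**
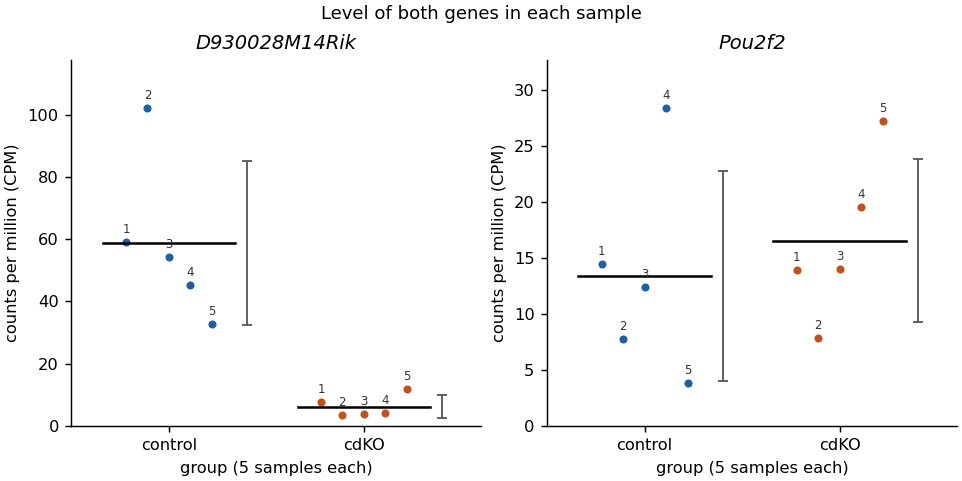
CPM of D930028M14Rik (left) and Pou2f2 (right) in the 5 control and 5 cdKO samples, numbered by replicate. The horizontal line is the group mean and the bar beside it the SD. For D930028M14Rik the lowest control sample, at 32.8 CPM, lies above the highest cdKO sample, at 11.8 CPM, while the Pou2f2 values of both groups overlap.

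Reads on the D930028M14Rik first exons fell almost wholly on the upstream one shown above. It held 535, 930, 377, 309 and 149 counts in control replicates 1 to 5 and 25, 8, 20, 14 and 4 counts in cdKO replicates 1 to 5. The downstream first exon held 2, 2, 3, 2 and 0 counts in the control samples and 0 in every cdKO sample. Over all 10 samples these came to 2371 and 9 counts. The near-silent downstream exon is the start at which RefSeq places its D930028M14Rik promoter entry, at chr7:25154819-25155118, so that the entry covers the start of few of the reads and its sequence is not shown.

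The fall of D930028M14Rik was not of the same size along the gene. The upstream first exon was at 5.00 ± 2.48 CPM in control and 0.181 ± 0.101 CPM in cdKO samples (SD, n = 5 each), or 3.62% of the control mean. Exon 2, at chr7:25155322-25155620, was at 17.1 ± 7.90 and 1.25 ± 0.534 CPM (SD, n = 5 each), or 7.32%. Exon 3, at chr7:25156094-25156627, was at 36.7 ± 16.0 and 4.74 ± 3.33 CPM (SD, n = 5 each), or 12.9%. All 4 bins of these exons had groups that did not overlap, and the last bin of exon 3 was at 13.7% of control. Since the gene was selected on its lower cdKO level, the lack of overlap in its own bins is no separate result.

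The share of the gene's counts on each exon showed the same order without any scaling between libraries. The upstream first exon took 9.08%, 8.72%, 7.90%, 9.23% and 6.71% of the D930028M14Rik counts in control replicates 1 to 5. In cdKO replicates 1 to 5 it took 4.13%, 2.70%, 6.54%, 4.14% and 0.667%. The groups did not overlap, but cdKO replicate 3 lay just under control replicate 5, and the cdKO shares rest on 4 to 25 counts. How often such shares fail to overlap in other genes was not counted, so that no result is read from this. Exon 3 took 61.9% to 65.2% of the counts in control samples and 68.3% to 87.5% in cdKO samples, the highest share being that of cdKO replicate 5. With replicate 5 of both groups left out, cdKO levels stood at 3.63%, 6.37% and 8.23% of control for the upstream first exon, exon 2 and exon 3, so that part of the difference between exons rested on these libraries.

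**Figure D3:**
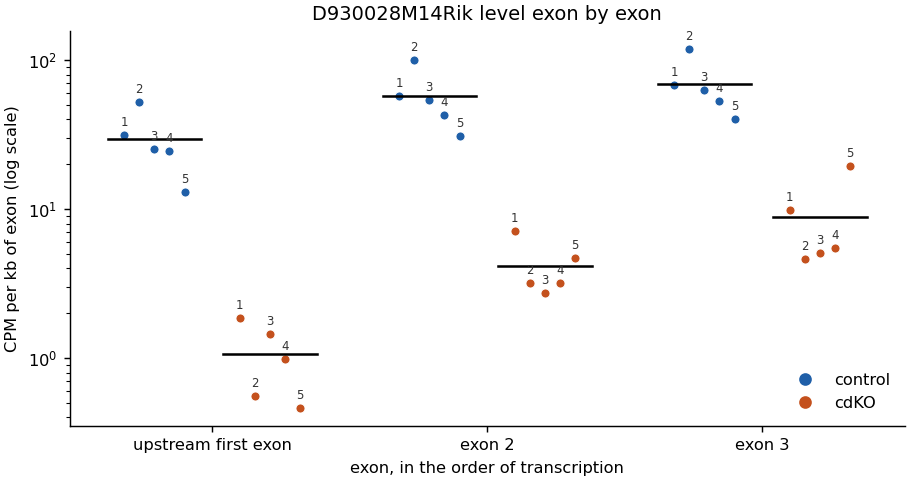
CPM per kb of exon, on a log scale, for the upstream first exon, exon 2 and exon 3 of D930028M14Rik in the 10 samples, numbered by replicate, with the group mean as a line. The gap between control and cdKO samples is widest at the upstream first exon, where cdKO stands at 3.62% of control, and narrowest at exon 3, where it is 12.9%.

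Pou2f2, which surrounds the lincRNA, had overlapping values in control and cdKO samples when all of its bins were summed. Its level was 14.5, 7.70, 12.4, 28.4 and 3.77 CPM in control replicates 1 to 5 and 13.9, 7.85, 14.02, 19.5 and 27.2 CPM in cdKO replicates 1 to 5. Both groups covered a wide and overlapping range, with control replicate 5 lowest and control replicate 4 highest of the 10. The means were 13.3 ± 9.38 CPM and 16.5 ± 7.27 CPM (SD, n = 5 each), and the log2 fold change was 0.31 (SE 0.482). Leaving out replicate 5 of both groups, an alternative chosen after their coverage had been seen, turned its direction, to a log2 fold change of -0.20. Without any 1 of the 10 samples it lay between 0.04 and 0.75.

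Per kilobase, Pou2f2 was at 1.62 ± 1.14 CPM per kb in control and 2.00 ± 0.882 CPM per kb in cdKO samples (SD, n = 5 each), above 42.9% and 45.9% of the genes tested. Over all bins, D930028M14Rik per kb was 12.3 to 102 times Pou2f2 per kb in control samples and 1.59 to 4.26 times in cdKO samples. The Pou2f2 length includes a last bin of 5132 bases, which held 1194 of its 11588 counts. The coding bins defined below as constitutive were at 6.21 ± 4.48 and 5.20 ± 3.11 CPM per kb (SD, n = 5 each). D930028M14Rik stood at 54.9 and 5.76 CPM per kb, so that in cdKO samples it was near the Pou2f2 coding bins. A read was counted on every bin that it overlapped, since a Pou2f2 bin of 1 base held 509 counts over the 10 samples, so that a gene cut into many short bins is counted higher per kb than a gene with a few long ones. Of the 34 Pou2f2 bins, 30 had counts and none had groups that did not overlap. The share over all bins was not taken. Over genes such groups were rare, 40 with cdKO lower and 32 with cdKO higher of 17825, so that this count does not set Pou2f2 apart. The 2 bins that Pou2f2 shares with the microRNA gene Mir6537, which lies on the same strand at chr7:25097066-25097175, held 9.86% of its counts.

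The proximal first exon of Pou2f2, from which 8 of the annotated coding transcripts start, had 0 counts in all 10 samples. The coding exon that follows held 52, 36, 28, 72 and 1 counts in control replicates 1 to 5 and 48, 19, 48, 41 and 8 counts in cdKO replicates 1 to 5, in all 353. Against these, a count of 0 allows a share of up to 0.850% for the proximal start, counting error only. The RefSeq promoter entry of Pou2f2, at chr7:25132411-25132710, lies at this silent start, and its sequence is therefore not shown. RefSeq extends the gene 1071 bases beyond the distal start of GENCODE M21.

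Reads came instead from the distal exons, which carried about as many as the coding exon. The distal first exon held 30, 7, 13, 58 and 1 counts in control and 28, 10, 16, 28 and 19 counts in cdKO replicates 1 to 5. Exon 2 of the distal transcript held 59, 25, 21, 83 and 1 counts in control and 47, 21, 44, 46 and 21 counts in cdKO replicates 1 to 5. Over all samples the distal exons had 210 and 368 counts, and their levels overlapped between groups, at 0.442 ± 0.434 and 0.470 ± 0.140 CPM (SD, n = 5 each) for exon 2. The counts do not record which exons a read joined, so that a junction from the distal exons to the coding exon was not measured here.

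Distal first exon use was expressed as counts per kb of exon 2 over counts per kb of the 8 constitutive coding bins of at least 50 bases, which cover 855 bases and are coding in every transcript with the proximal start. The ratio was 1.42, 1.04, 0.660, 1.39 and 0.192 in control replicates 1 to 5 and 1.41, 1.24, 1.52, 1.01 and 6.85 in cdKO replicates 1 to 5. The mean was 0.941 ± 0.520 in control and 2.40 ± 2.49 in cdKO samples (SD, n = 5 each), and the higher cdKO mean came from 1 library, since it was 1.29 without cdKO replicate 5. The same ratio for the proximal first exon was 0 in each sample. The annotated reading frame, followed from the shared coding exon back into the distal exons, meets a stop codon 22 bases before the coding exon and no ATG after that stop. The next ATG in this frame is the one in capitals above, which begins at base 9 of the coding exon and lies 12 codons after the annotated start.

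Another exon that most annotated transcripts lack was also well covered. The exon of 279 bases at chr7:25115471-25115749 on the minus strand belongs to a single short coding transcript, and its length is 93 whole codons. It is shown because it would add a long stretch rich in C and G, 67.7% of its bases, to the coding sequence:
Pou2f2 long exon: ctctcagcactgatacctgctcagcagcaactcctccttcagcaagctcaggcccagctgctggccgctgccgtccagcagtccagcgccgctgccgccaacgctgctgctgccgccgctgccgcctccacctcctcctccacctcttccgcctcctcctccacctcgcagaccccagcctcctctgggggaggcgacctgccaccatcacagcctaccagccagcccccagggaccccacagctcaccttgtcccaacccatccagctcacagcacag

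This long exon held 49, 21, 24, 79 and 4 counts in control replicates 1 to 5 and 38, 16, 55, 58 and 1 counts in cdKO replicates 1 to 5. Its 345 counts over all samples compare with 359 on the exon of 106 bases that follows and with 119 on the longer bin, 117 bases, of the exon ahead of it. When each bin was given the number of positions at which a read of 150 bases can touch it, the density of the long exon was 0.406 of that of the constitutive coding bins. The exon ahead of it, which 8 transcripts contain, was at 0.225, and the exon after it at 0.708. Among the 8 samples other than the replicates 5, the long exon ranged from 0.257 to 0.646. The groups overlapped, at 0.419 ± 0.397 CPM in control and 0.412 ± 0.298 CPM in cdKO samples (SD, n = 5 each). The cassette exon of 74 bases at chr7:25093288-25093361, which lies in 3 annotated transcripts and forms an exon of its own in 1 of them, was at 0.414 ± 0.327 and 0.676 ± 0.505 CPM (SD, n = 5 each). Without the replicates 5 its means were 0.510 and 0.456 CPM.

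At the 3′ end, 2 libraries stood apart. The last exon, at chr7:25087344-25093002, took 21.4%, 17.6%, 24.9%, 19.1% and 48.6% of the Pou2f2 counts in control replicates 1 to 5 and 16.7%, 28.1%, 22.3%, 21.8% and 81.7% in cdKO replicates 1 to 5. In cdKO replicate 5 this exon was at 22.2 CPM against 2.20 to 4.26 CPM in the other cdKO samples, while the constitutive coding bins were at 0.848 CPM against 2.83 to 7.63 CPM. In control replicate 5 the coding bins were at 1.08 CPM against 3.23 to 11.3 CPM in the other controls, and the last exon was at 1.83 CPM. Over all samples the last exon was thus at 2.95 ± 1.57 CPM in control and 6.83 ± 8.65 CPM in cdKO samples (SD, n = 5 each), whereas the bins outside it were at 10.4 ± 7.87 and 9.67 ± 4.31 CPM. Without the replicates 5 the last exon was at 3.24 and 2.98 CPM. D930028M14Rik had its highest share of exon 3 in the same 2 libraries within each group, and the part of coverage along transcripts in these differences was not tested.

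**Figure D4:**
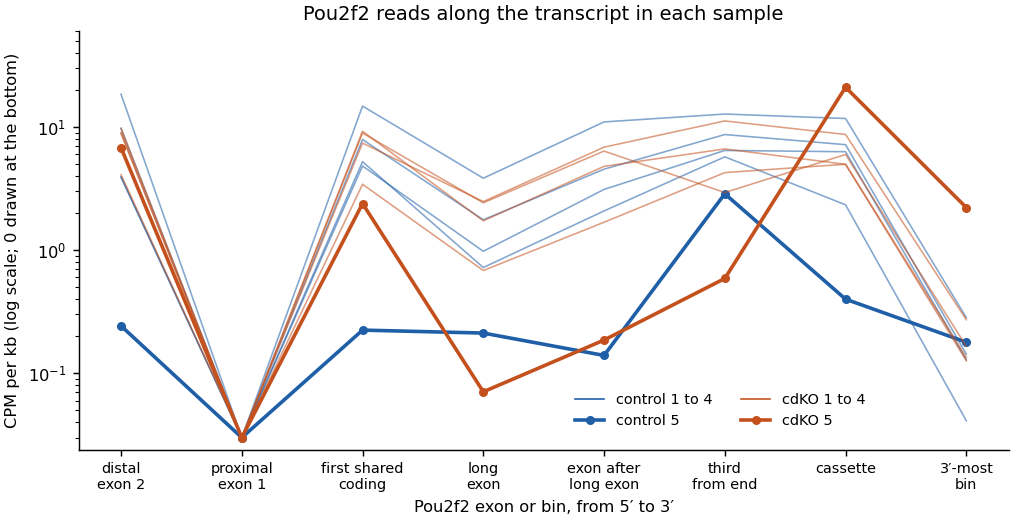
CPM per kb, on a log scale, for 8 exons or bins of Pou2f2 from 5′ to 3′ in each sample, with 0 drawn at the bottom. The proximal first exon is at 0 in all 10 samples, and replicate 5 of both groups (thick lines) depart from the other 8, cdKO replicate 5 being highest at the cassette exon and the 3′-most bin and low in the coding exons between.

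The next comparison asked whether both genes varied together within groups, which is independent of the difference between group means used in the choice. Deviations of log2(CPM + 0.5) from the group mean, over bins of a single gene, gave Pearson's r = 0.362 (exact permutation within groups, two-sided, p = 0.318, n = 10) and Spearman's rho = 0.442 (exact permutation, p = 0.227, n = 10), both with an adjusted p of 0.318 over these 2 relations. Control replicate 5 was low and cdKO replicate 5 high in both genes, while control replicates 2 and 4 deviated in opposite directions. In cdKO replicate 5 both genes were the highest of the cdKO samples at the 3′ end. There the last exon of Pou2f2 was at 22.2 CPM and exon 3 of D930028M14Rik at 10.3 CPM. The Pou2f2 distal first exon was also highest in cdKO replicate 5, at 0.375 CPM against 0.119 to 0.356 CPM in the other cdKO samples. For exon 2 of D930028M14Rik only cdKO replicate 1 was higher. The constitutive coding bins of Pou2f2, at 0.848 CPM, and the D930028M14Rik upstream first exon, at 0.0788 CPM, were the lowest of the cdKO samples. Without the 2 samples farthest from the median of D930028M14Rik, cdKO replicate 5 and control replicate 2, r was 0.441 (exact permutation, p = 0.288, n = 8). Leaving out control replicate 5 gave r = 0.113 and leaving out cdKO replicate 5 gave r = 0.141. In control samples alone r was 0.117 and in cdKO samples alone 0.714 (n = 5 each), given without a test. A joint variation of the genes within groups was therefore not detectable with these samples.

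**Figure D5:**
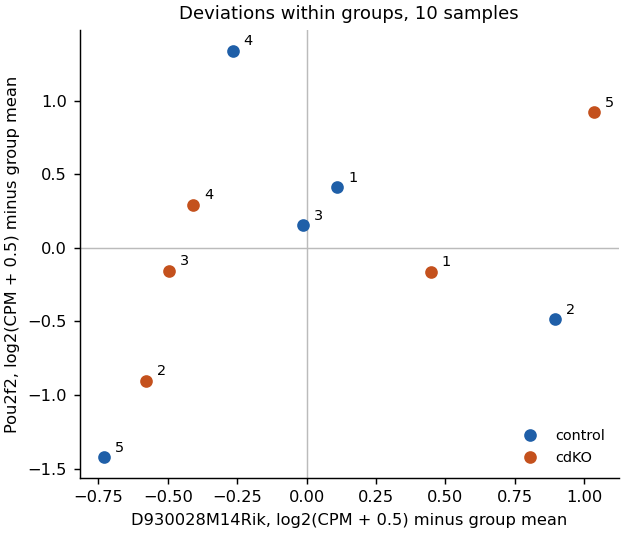
Deviation of each sample from its group mean in log2(CPM + 0.5), D930028M14Rik on the horizontal axis and Pou2f2 on the vertical axis, numbered by replicate. The 10 points give r = 0.362, with replicate 5 of control at the lower left and replicate 5 of cdKO at the upper right.

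The genes whose deviations were most like each member differed between them. Over the 10 samples, among 13534 genes with a mean of at least 1 CPM, those most correlated with D930028M14Rik were Mpdu1 (r = 0.983), Gm43579 (0.970), Dhrs1 (0.951), Cby1 (0.950) and Zfand3 (0.942), and those least so were Zfp58 (-0.975), Zfp719 (-0.973) and Zfp809 (-0.971). For Pou2f2 they were Ncam1 (0.987), a neural cell adhesion molecule, Robo1 (0.972), an axon guidance receptor, Bace1 (0.954), Sema4b (0.953) and Esrrg (0.952), with Slc30a6 (-0.972), Exosc2 (-0.960) and Vmp1 (-0.957) at the other end. These values are descriptions of extremes over many genes in 10 samples that share libraries. None of these genes passed the test between groups with edgeR, and their log2 fold changes lay between -0.32 and 0.69.

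Genes beside the pair were compared to ask whether the lower counts extended along the chromosome. GENCODE M21 lists 13 other genes within 100 kb of Pou2f2, of which 10 passed the filter. None passed the test at an adjusted p under 0.05 with edgeR's quasi-likelihood test, none had an unadjusted p under 0.05, and none had groups that did not overlap. Of all 17825 genes, 0 passed that test and 887 had an unadjusted p under 0.05. Groups did not overlap for 40 genes with cdKO lower and 32 with cdKO higher. With such shares, 10 genes are too few for these counts to set the neighbours apart from other genes. Their median log2 fold change was 0.12, beside -0.02 over all genes tested. On the side of the Pou2f2 3′ end, the glutamate receptor gene Grik5 was at a log2 fold change of 0.08 (SE 0.312) and Zfp574 at -0.16 (SE 0.413). Beyond the distal start, Dedd2 was at 0.24, 4933430L12Rik at -0.06, Zfp526 at -0.09, the kinase gene Gsk3a at 0.17, 9130221H12Rik at 0.26, the repressor gene Erf at 0.45 and the repressor gene Cic at -0.33. Of these, 4933430L12Rik and 9130221H12Rik are antisense genes, whose reads cannot be told from those of their partners because strand was not used in counting.

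Of the POU family and its coactivator, 10 of 16 genes passed the filter and none passed the test in either direction. The list's median log2 fold change was -0.08, beside -0.02 over all genes tested, and it was -0.41 without cdKO replicate 5. The other octamer factor of the class, Pou2f1 (Oct1), was at 35.1 ± 16.1 CPM in control and 19.9 ± 9.98 CPM in cdKO samples (log2 fold change -0.82, adjusted p = 0.939 with edgeR). Pou3f1, Pou3f2, Pou3f3 and Pou3f4, the class of neural POU genes, were at log2 fold changes of -0.16, -0.07, 0.47 and -0.09. Of the sensory and retinal class, Pou4f1 was at 1.42 and Pou4f2 at 2.20, both under 1.2 CPM in either group. Pou6f1 was at -0.26. The summed level of the list was 187 CPM in cdKO replicate 5 against 54.5 to 140 CPM in the other 9 samples.

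Of the temporal factors, 9 of 12 passed the filter and none passed the test. Onecut3 came closest, at -5.08 (SE 0.761, adjusted p = 0.110 with edgeR), and Onecut1 was at -1.11 (SE 0.456, adjusted p = 0.939). Onecut2, counted over all of its bins, was at 0.52. Zfhx3, which follows the Onecut factors in later-born neurons, was at 13.9 ± 13.7 CPM in control and 10.2 ± 11.6 CPM in cdKO samples (SD, n = 5 each), with Zfhx2 at a log2 fold change of 0.45 and Zfhx4 at -0.16. Nfia and Nfib were at 0.12 and -0.39, while Nfix and Neurod2 did not pass the filter and Neurod6 had no read. The median of the list was -0.16, and it was -0.95 without cdKO replicate 5, in which the list summed to 110 CPM against 19.1 to 80.2 CPM in the other 9 samples. Of the Onecut list, 0 of 3 passed the test, with a median of -1.11.

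Pou2f2 is also expressed in V2 INs, and the 12 V2 genes all passed the filter without any passing the test. Their median log2 fold change was 0.49, and it was 0.33 without cdKO replicate 5. Lhx3, Lhx4, Sox21 and Foxn4 were at 0.19, 0.02, -0.16 and -0.06, and Shox2, the gene of the list with the largest value, was at 1.93 (SE 0.812, adjusted p = 0.939 with edgeR). In cdKO replicate 5 Shox2 was at 10.2 CPM, against a cdKO median of 1.07 CPM and a control maximum of 1.70 CPM. Lhx3 is shared with MNs. None of the 8 motor neuron genes passed the test, with a median of 0.06 (0.14 without cdKO replicate 5), and Isl1 was at 225 CPM in control and 127 CPM in cdKO samples (log2 fold change -0.82, adjusted p = 0.939). Isl2, Lhx3 and Slc18a3 were at -0.15, 0.19 and 0.13. Of the 6 progenitor genes none passed, with a median of -0.18, Olig2 being furthest at -0.50 beside Pax6 at -0.28, Neurog2 at -0.20 and Sox2 at -0.13, while Nkx6-2, named after its value was seen, was at 0.39. The median was -0.28 without cdKO replicate 5. Of the 3 V3 genes none passed either, with a median of 0.08 (0.0034 without cdKO replicate 5), Nkx2-2 at 0.08, Sim1 at -0.07 and Uncx at 0.35.

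Marker genes of cells outside the neural tube, and the lumbar Hox genes, were examined as further lists. The B cell, macrophage and endothelial lists left few counts, whereas the erythroid, mesenchymal and dorsal root ganglion lists reached higher sums. The dorsal root ganglion list summed to 38.6 to 106 CPM in control and 48.2 to 164 CPM in cdKO samples. Of the 6 B cell genes none passed the filter, their summed level was 0 to 0.296 CPM in control and 0 to 0.0861 CPM in cdKO samples, and Pou2af1 had no read in any sample, so that the Pou2f2 reads came without B cell markers. Of the 7 macrophage genes only Csf1r passed, at 4.23 and 4.31 CPM, and the list summed to 3.14 to 5.27 CPM in control and 3.30 to 6.94 CPM in cdKO samples. The 4 endothelial genes summed to 0.931 to 3.25 CPM in control and 0.940 to 2.09 CPM in cdKO samples, with a median of -0.11 over the 2 past the filter (-0.33 without cdKO replicate 5), Kdr at -0.42 and Pecam1 at 0.19. Of the 7 erythroid genes 6 passed the filter, with a median of 2.08, which was 0.95 without cdKO replicate 5. The embryonic globin Hbb-y, the most abundant of them, was at 2.55 and 11.2 CPM, with Hba-x, Hbb-bh1 and Hba-a1 at log2 fold changes of 2.10, 2.16 and 1.87 and Alas2, of heme synthesis and likewise named after its value was seen, at 0.31. Their sum ranged from 0.902 to 19.0 CPM in control and from 2.84 to 66.4 CPM in cdKO samples, highest in cdKO replicate 5. The 6 mesenchymal genes had a median of 0.61, with the collagen gene Col3a1 at 5.92 and 8.59 CPM, Col1a2 at 3.99 and 6.43 CPM, Pdgfra and Col1a1 below 1 CPM in both groups, and Twist1 furthest at 2.55. The 4 dorsal root ganglion genes had a median of 1.07, or 0.35 without cdKO replicate 5, with Prph at 39.0 and 71.4 CPM and Pou4f1 at a log2 fold change of 1.42. The 7 lumbar Hox genes had a median of 0.95, or 0.53 without cdKO replicate 5, with Hoxa10, Hoxd10, Hoxc10 and Hoxd9 at 0.92, 1.09, 0.84 and 0.45 and Hoxc11 furthest at 2.82. In cdKO replicate 5 Twist1 and Hoxc11 were at 1.62 and 2.37 CPM, against cdKO medians of 0.191 and 0.283 CPM. No gene of these lists passed the test, and their part in the values of Pou2f2 and D930028M14Rik was not tested.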

How the data were processed

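RNA-seq of 10 samples was analysed, grouped by the genotype in their labels. The authors deposited raw counts of reads per exon bin. The submitters' processing notes name bcl2fastq 2.17, Trimmomatic 0.36, STAR 2.5.2b, Subread 1.5.2, DESeq2 and the build GRCm38. Strand was not used, since each of 16 intervals present on both strands carried equal counts. Of 425461 bins, 4001 with 1.24% of the counts belonged to no single gene and were left out. The rest were summed to GENCODE M21 genes, compared with edgeR 4.0.16 (filterByExpr at a minimum of 10, TMM, quasi-likelihood test, Benjamini-Hochberg threshold 0.05). CPM uses the TMM-scaled library. edgeR was tested on simulated counts for control against cdKO over 17465 genes, with 90 of 100 genes changed 8-fold and 3 of 100 changed 2-fold called. Totals per sample are given above and limit precision to counting error, since reads are not independent molecules. Members and lists were chosen with earlier results of these data known. Named are both members, genes within 100 kb, the most and least correlated genes, every filtered gene of the POU, temporal and Onecut lists, and the highest and most different genes of the others. Some genes that this rule names are not reported here. Alternatives were other scalings and filters, DESeq2 1.42.0, single-gene bins, a block and samples left out. Same-numbered samples did not pair, with correlations of 0.0924, -0.336, 0.174, 0.456 and 0.375. Pairs within groups differed beyond sampling noise.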

Additional observations from a re-analysis of the deposited data

Results flagged for a closer look

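Of 52 groups of 5 values examined, 9 had a sample far from the other 4, where chance gives about 1 in 20, and 6 of the 9 were cdKO replicate 5. In that library the last exon of Pou2f2 was at 22.2 CPM, the last exon took 81.7% of the Pou2f2 counts, and exon 3 took 87.5% of the D930028M14Rik counts. The ratio of distal to constitutive density was 6.85 there, and the summed levels of the POU list and of the temporal factors were 187 and 110 CPM. In control replicate 5 the last exon took 48.6% of the Pou2f2 counts and exon 3 took 65.2% of the D930028M14Rik counts, where control replicates 1 to 4 had 61.9% to 62.4%. The endothelial genes summed to 3.25 CPM in control replicate 5, against 0.931 to 1.52 CPM in the others. Both libraries depart in the direction of more counts toward the 3′ end in both genes, and the cause was not tested.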

How the results depend on the processing

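D930028M14Rik was lower in cdKO samples under all 18 alternatives, with log2 fold changes between -3.79 and -2.96 (between -3.63 and -2.96 with 1 sample left out). Pou2f2 lay between 0.04 and 0.75 with 1 sample left out, and was below 0 under 1 of 18 alternatives, at -0.20 without replicate 5 of both groups. The count of genes past the threshold was 0 with DESeq2's size factors, with single-gene bins and without control replicates 1 and 5 together. It was 1 with library size only or without the low-count filter, 19 with the DESeq2 Wald test, 4 without replicate 5 of both groups (added after seeing the data), and 0 to 4 with 1 sample left out. Without control replicate 5 it was 4, and without cdKO replicate 5 it was 1. With the replicate block the count was 0, the D930028M14Rik log2 fold change -3.34 and that of Pou2f2 0.41. Same-numbered samples share only a number. The correlation within groups ranged from 0.113 to 0.587 with 1 sample left out, and no alternative passed the threshold. No r pooled over both groups is given, since D930028M14Rik separates them. The distal ratio ranged from 0.822 to 1.13 in control and from 1.29 to 2.75 in cdKO samples with 1 sample left out. With the read length added to bin length its means were lower, at 0.654 in control and 1.67 in cdKO samples. Library size alone moved the median of all genes by -0.13. The 210 and 368 counts on the distal Pou2f2 exons limit what differences between groups could be seen there.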
